A study of Rattus norvegicus with 9 samples.

Results

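The livers of 4 neonatal Sprague Dawley rats given CSF1-Fc were compared with the livers of 2 given PBS, by whole-liver RNA on Affymetrix Rat Gene 2.1 ST arrays. These are 6 of the 9 arrays of the series. The members of the comparison are the probe sets that the platform annotation assigns exactly 1 gene symbol, 14824 of 36685, which name 14557 genes. Pups of both groups were born to dams that received PBS in late pregnancy. Treated pups received porcine CSF1 fused to an immunoglobulin Fc region at 1 µg/g for 5 days, control pups received PBS on the same days, and livers were taken on day 6. The livers are numbered in the labels but not tied to litters, so a p-value measures the spread between these samples only. Every value below is log2 RMA expression, so a difference of 1 is a 2-fold change, and a fold change is CSF1-Fc liver minus PBS liver on that scale. With 6 arrays, and 2 of them controls, the precision is low.

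CSF1 is the growth factor on which most tissue macrophages depend for survival and proliferation, and it acts through a single receptor tyrosine kinase, CSF1R. Resident macrophages of the liver, the Kupffer cells, line the sinusoids, where they take up particles, complement-coated bacteria, aged red cells and plasma lipoproteins. Hepatocytes make up most of the tissue and differ along the lobule: those around the central vein carry out Wnt-dependent functions such as glutamine synthesis, and those near the portal tract carry out urea synthesis and gluconeogenesis.

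The arrays carried the signature of the labelled tissue. All 16 measured genes of secreted hepatocyte proteins were higher in each of the 6 livers than in the mean of the 3 arrays of cultured bone marrow-derived macrophages (BMDM) of the same series, which came from another strain, Dark Agouti. Their mean over the 6 livers exceeded the BMDM mean by 2.63 to 9.57 on the log2 scale. Albumin (Alb) read 12.90, 12.71, 12.71 and 12.73 in CSF1-Fc livers and 12.74 and 12.82 in PBS livers. PBS liver 2 stood apart, with a Pearson correlation of 0.951 to 0.962 with the other livers across probe sets, against 0.971 to 0.985 between all other pairs. The PBS livers differed from each other by at least 2-fold in 1056 genes, against 105 to 162 genes for the 6 pairs of CSF1-Fc livers.

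With CSF1-Fc, 307 probe sets with 1 symbol were higher (2.07% of those tested) and 47 were lower (0.317%) at an adjusted p under 0.05 in limma. They stand for 306 and 47 genes. The rises had a median log2 fold change of 1.56 (range 0.70 to 3.44), and 283 were at least 2-fold and 50 at least 4-fold. The falls had a median of -1.16 (range -0.75 to -2.88), with 31 of at least 2-fold and 4 of at least 4-fold. In none of these genes did the arrays of the groups overlap. Without regard to the test, all 4 CSF1-Fc arrays lay above both PBS arrays in 13.1% of probe sets with 1 symbol and below both in 11.7%. The median log2 fold change of all of them was -0.03, and RMA sets the centres of the arrays alike.

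Each call rests on all 4 CSF1-Fc livers: without any one of them no probe set passed, with 1907 to 2060 probe sets with 1 symbol at an unadjusted p under 0.05 in limma. Of the 306 genes that rose, 272 passed again without PBS liver 1 and 158 without PBS liver 2, the same 158 genes passing both times. Of the 47 that fell, 39 and 14 did, and 14 passed both times. Without PBS liver 1 the sole control is PBS liver 2, the array that stood apart, so passing again in that fit is not a measure of robustness. Where a named gene did not pass with 1 PBS liver left out, its adjusted p from limma is given in brackets.

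**Figure D1:**
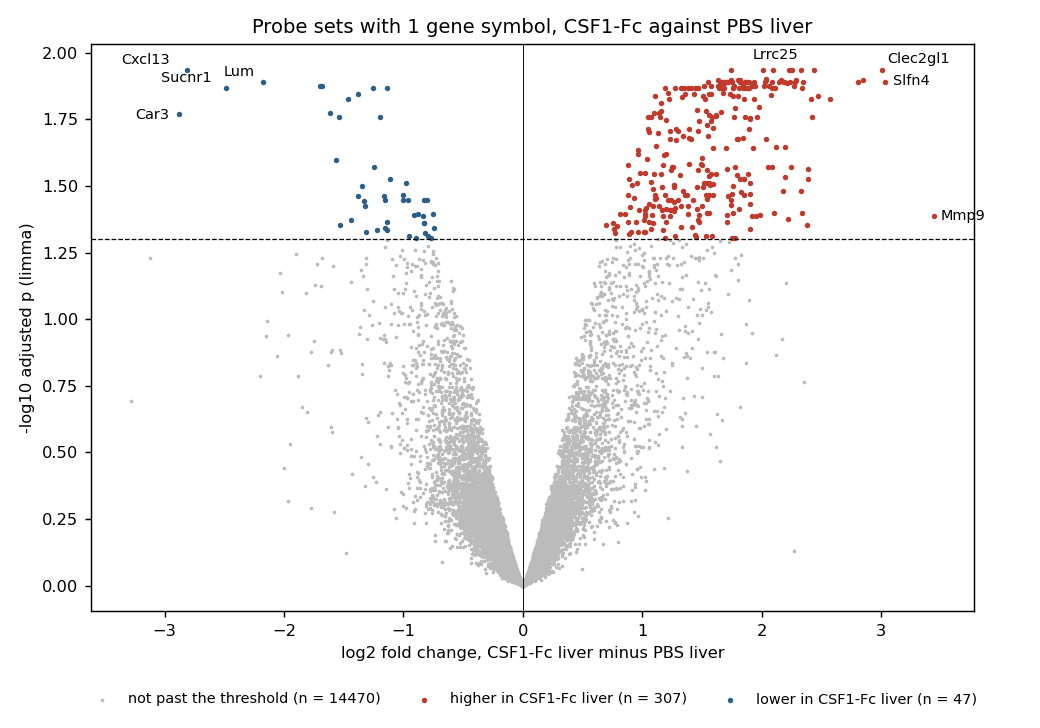
Log2 fold change (CSF1-Fc minus PBS liver, x axis) against -log10 of the adjusted p from limma (y axis) for each probe set with 1 gene symbol, with red points higher and blue points lower in CSF1-Fc liver past the threshold (dashed line at 0.05). The 307 red points outnumber the 47 blue ones, and the changes past the threshold that are largest by fold (Mmp9, Car3) do not have the lowest adjusted p.

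The largest rise was in Mmp9, a secreted gelatinase of macrophages and neutrophils. It read 9.62, 8.88, 10.70 and 10.47 in CSF1-Fc livers and 6.67 and 6.27 in PBS livers, a difference of 3.44 (SE 0.52, adjusted p = 0.0409 from limma; 0.0623 and 0.144 omitting PBS liver 1 and 2). Its 4 treated values ranged over nearly 2 log2 units, with CSF1-Fc liver 2 the lowest. Slfn4, a Schlafen family gene of myeloid cells in mouse, read 6.86, 7.34, 7.38 and 7.77 in CSF1-Fc livers and 4.31 and 4.29 in PBS livers (3.04, SE 0.25, adjusted p = 0.0128; 0.0501 omitting PBS liver 2). Clec2gl1, a C-type lectin-like gene, read 7.09, 6.87, 6.86 and 7.09 in CSF1-Fc livers and 4.19 and 3.74 in PBS livers (3.01, SE 0.17, adjusted p = 0.0116). Cd14, the lipopolysaccharide co-receptor, read 9.69, 9.56, 9.40 and 9.44 in CSF1-Fc livers and 6.35 and 6.99 in PBS livers (2.85, SE 0.21, adjusted p = 0.0127). In these 3 genes the treated livers lay within 1 log2 unit of each other and at least 2 above the nearer PBS liver.

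The other large rises were in genes of several kinds of function. Cd300lg, an immunoglobulin-like receptor described in endothelium of mouse and human, read 7.10, 6.70, 6.56 and 6.98 in CSF1-Fc livers and 3.71 and 4.35 in PBS livers (2.81, SE 0.24, adjusted p = 0.0128). Upp1, which cleaves uridine, read 7.53, 7.92, 7.66 and 7.47 in CSF1-Fc livers and 4.64 and 5.51 in PBS livers (2.57, SE 0.27, adjusted p = 0.0149). Both were separated by more than the distance between the PBS livers. Siglec1, the sialic acid receptor sialoadhesin, rose by 2.43 (SE 0.27, adjusted p = 0.0174; 0.0548 omitting PBS liver 2), and Timd4, a receptor for phosphatidylserine on dying cells, by 2.39 (SE 0.30, adjusted p = 0.0273). Acsbg1, an acyl-CoA synthetase, rose by 2.35 (SE 0.20, adjusted p = 0.0128), and Slc2a1, the glucose transporter GLUT1, by 2.34 (SE 0.22, adjusted p = 0.0135). The remaining 5 of the 15 largest rises were Adgb (2.47; 0.0567 omitting PBS liver 2), Lrrc25 (2.44), Pla2g7, which hydrolyses platelet-activating factor (2.41; 0.0623 omitting PBS liver 2), Cd180, a Toll-like receptor homologue (2.39; 0.111 omitting PBS liver 2), and Pilrb1l1 (2.38; 0.0601 and 0.0611 omitting PBS liver 1 and 2).

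Ranked by the moderated t in place of the fold, the leading genes were those with little spread among the treated livers. Lrrc25, a leucine-rich repeat protein of myeloid cells, came first (t = 21.2, adjusted p = 0.0116 from limma), with 9.14, 9.04, 9.07 and 9.07 in CSF1-Fc livers and 6.70 and 6.58 in PBS livers. Cd36, the fatty acid translocase and scavenger receptor, read 9.37, 9.41, 9.45 and 9.52 in CSF1-Fc livers and 7.32 and 7.04 in PBS livers (2.26, SE 0.14, adjusted p = 0.0116). Pltp, the phospholipid transfer protein, read 10.67, 10.79, 10.65 and 10.62 in CSF1-Fc livers and 8.76 and 8.58 in PBS livers (2.01, SE 0.12, adjusted p = 0.0116). The treated livers agreed to within 0.2 in all 3 genes, less than the gap between the PBS livers in Cd36. Fgl2, a membrane prothrombinase of macrophages, rose by 2.23 (SE 0.14), Axl, a receptor tyrosine kinase that binds dying cells, by 2.098 (SE 0.14) and Sh2d1b, an adaptor of SLAM receptors, by 2.33 (SE 0.14), each with an adjusted p of 0.0116. The actin regulators Nckap1l (2.04, adjusted p = 0.0126) and Hcls1 (1.75, adjusted p = 0.0116) completed the 10 with Clec2gl1 and Cd14. All 10 passed again without either PBS liver.

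**Figure D2:**
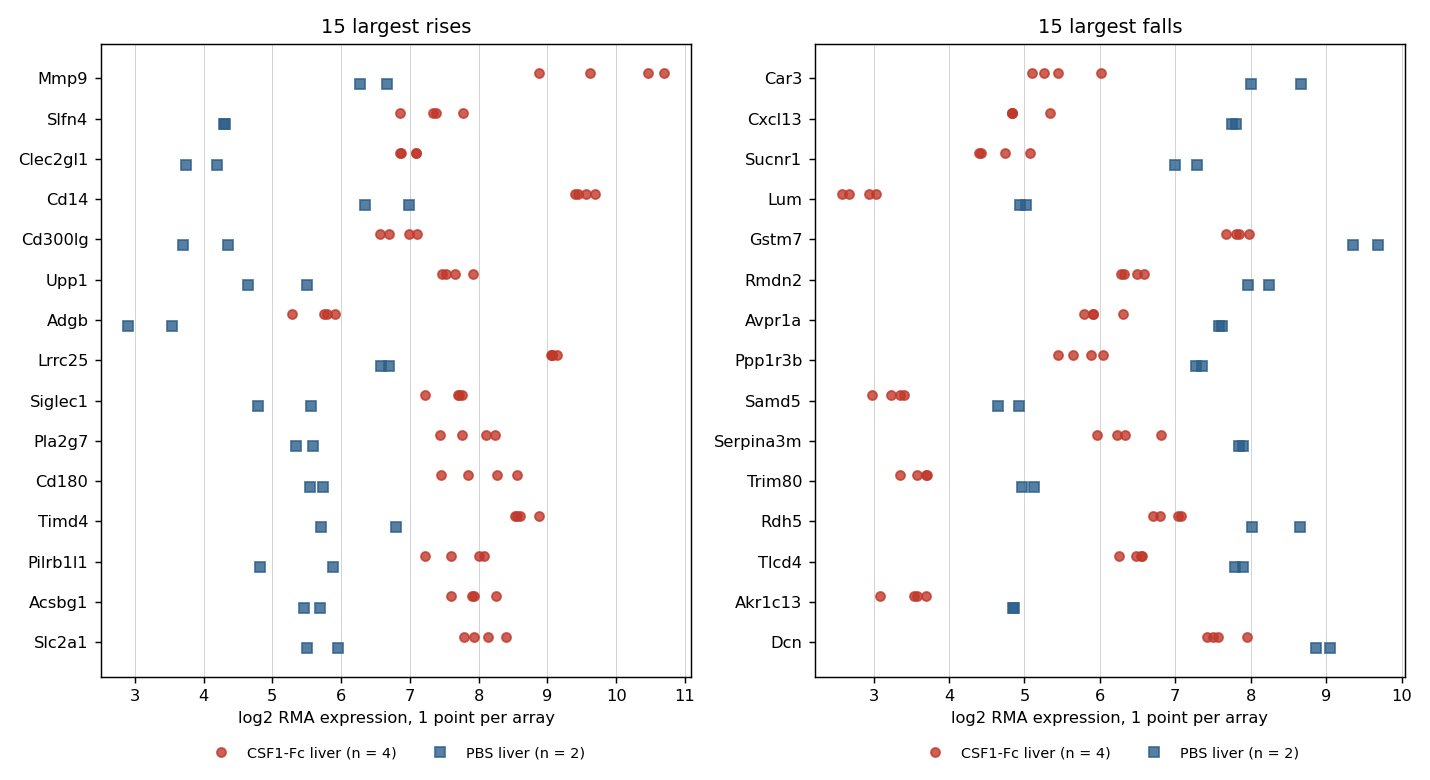
Log2 RMA expression (x axis) of the 15 genes with the largest rises (left) and falls (right) among those past the threshold, 1 red circle for each of the 4 CSF1-Fc livers and 1 blue square for each of the 2 PBS livers. The genes were chosen among calls whose groups did not overlap, so their separation is set by that choice. Mmp9 shows the widest treated group, from 8.88 to 10.70.

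The promoters of the largest rises and falls are shown for the first 3 of each for which the RefSeq table (rat build GRCr8) holds one, as 300 bases from 250 before the annotated start, 5′ to 3′ on the gene's strand, with capitals for any match to 4 motifs on either strand. The motifs were AGGAAGT, the core bound by PU.1, the ETS factor of myeloid cells; TCACGTG, bound by MITF and TFE factors; TGANTCA, bound by AP-1; and CAAAGTC, bound by HNF4, a factor of hepatocytes.
Slfn4, chr10:68491970-68492269, plus strand: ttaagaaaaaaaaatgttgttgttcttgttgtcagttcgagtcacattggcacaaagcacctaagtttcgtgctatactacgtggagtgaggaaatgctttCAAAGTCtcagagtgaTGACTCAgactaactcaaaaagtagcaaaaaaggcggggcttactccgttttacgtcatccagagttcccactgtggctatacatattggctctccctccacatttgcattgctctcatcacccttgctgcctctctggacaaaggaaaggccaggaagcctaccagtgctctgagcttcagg
Clec2gl1, chr4:163992121-163992420, plus strand: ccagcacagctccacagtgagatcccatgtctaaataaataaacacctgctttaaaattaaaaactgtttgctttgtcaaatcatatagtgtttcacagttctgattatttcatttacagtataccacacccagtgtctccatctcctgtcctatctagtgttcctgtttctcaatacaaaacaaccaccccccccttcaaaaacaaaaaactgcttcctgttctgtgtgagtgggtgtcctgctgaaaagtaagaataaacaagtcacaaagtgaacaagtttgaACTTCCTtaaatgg
Cd14, chr18:28611109-28611408, minus strand: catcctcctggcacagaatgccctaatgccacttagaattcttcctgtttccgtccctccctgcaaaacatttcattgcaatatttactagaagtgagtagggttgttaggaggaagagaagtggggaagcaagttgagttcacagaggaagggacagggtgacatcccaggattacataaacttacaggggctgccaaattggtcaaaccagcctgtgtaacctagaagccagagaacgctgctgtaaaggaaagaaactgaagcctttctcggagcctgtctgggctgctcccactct
Cxcl13, chr14:13917871-13918170, minus strand: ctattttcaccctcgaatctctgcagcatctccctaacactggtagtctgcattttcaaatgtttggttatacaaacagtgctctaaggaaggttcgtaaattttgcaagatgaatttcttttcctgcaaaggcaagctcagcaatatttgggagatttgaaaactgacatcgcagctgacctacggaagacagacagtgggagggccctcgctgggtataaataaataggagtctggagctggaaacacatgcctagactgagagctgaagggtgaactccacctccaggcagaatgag
Sucnr1, chr2:146368608-146368907, plus strand: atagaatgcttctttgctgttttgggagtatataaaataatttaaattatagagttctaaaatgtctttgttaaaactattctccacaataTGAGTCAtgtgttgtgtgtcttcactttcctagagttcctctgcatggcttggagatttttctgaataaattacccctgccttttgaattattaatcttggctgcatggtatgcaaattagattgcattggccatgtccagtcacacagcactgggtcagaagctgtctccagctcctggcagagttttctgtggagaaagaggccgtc
Lum, chr7:34245456-34245755, plus strand: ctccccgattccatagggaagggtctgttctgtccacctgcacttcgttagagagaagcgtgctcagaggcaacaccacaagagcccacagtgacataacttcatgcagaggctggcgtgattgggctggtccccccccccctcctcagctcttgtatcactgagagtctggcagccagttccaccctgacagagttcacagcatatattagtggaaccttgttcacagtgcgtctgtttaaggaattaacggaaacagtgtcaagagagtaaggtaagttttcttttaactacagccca
Slfn4 held the HNF4 letters at base 102 and the AP-1 letters at base 118, Sucnr1 the AP-1 letters at base 92, and Clec2gl1 the PU.1 letters, as their reverse complement ACTTCCT, at base 287, past the start. None of the 4 motifs was in the windows of Cd14, Cxcl13 and Lum.

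Over all genes with a promoter in the table, the PU.1 letters stood in 44 of 252 promoters of genes that rose (17.5%) and 4 of 40 of genes that fell (10%), against 971 of 11724 measured genes (8.28%). The AP-1 letters stood in 27 (10.7%) of the rises and 1 (2.5%) of the falls, against 6.76% of measured genes. The MITF and TFE letters stood in 5.16% of the rises and 2.5% of the falls, against 4.28% of measured genes, and the HNF4 letters in 3.97% and 7.5%, against 4.24%. These shares describe letters in a fixed window, not binding, and no test was made of them.

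Among the falls, Car3, a carbonic anhydrase of pericentral hepatocytes and fat cells, had the largest change. It read 5.44, 5.25, 5.10 and 6.02 in CSF1-Fc livers and 8.67 and 8.003 in PBS livers (-2.88, SE 0.31, adjusted p = 0.017 from limma; 0.0514 omitting PBS liver 2). Cxcl13, the chemokine that attracts B cells, read 5.34, 4.84, 4.83 and 4.84 in CSF1-Fc livers and 7.76 and 7.80 in PBS livers (-2.81, SE 0.19, adjusted p = 0.0116). Sucnr1, the succinate receptor, which stellate cells carry in the liver, read 4.75, 5.08, 4.39 and 4.43 in CSF1-Fc livers and 7.00 and 7.29 in PBS livers (-2.48, SE 0.23, adjusted p = 0.0135; 0.0611 omitting PBS liver 2). Each of the 3 lay about 2 log2 units or more below the lower PBS liver on every treated array. Lum, a collagen-binding proteoglycan of fibroblasts, read 2.94, 3.03, 2.67 and 2.58 in CSF1-Fc livers and 5.02 and 4.94 in PBS livers (-2.17, SE 0.17, adjusted p = 0.0128), and its treated values lay below the median level of all probe sets, 3.8.

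The next falls included enzymes and a receptor. Gstm7, a glutathione transferase, read 7.68, 7.97, 7.80 and 7.84 in CSF1-Fc livers and 9.69 and 9.35 in PBS livers (-1.70, SE 0.15, adjusted p = 0.0134). Avpr1a, the vasopressin receptor of pericentral hepatocytes, read 5.91, 5.91, 5.79 and 6.31 in CSF1-Fc livers and 7.62 and 7.58 in PBS livers (-1.62, SE 0.17, adjusted p = 0.0168; 0.0636 omitting PBS liver 2). Both groups were tight and well apart in these genes. Ppp1r3b, the subunit that targets protein phosphatase 1 to liver glycogen, fell by 1.56 (SE 0.19, adjusted p = 0.0253; 0.0843 omitting PBS liver 2), and Rdh5, a retinol dehydrogenase, by 1.44 (SE 0.22, adjusted p = 0.0424; 0.0902 omitting PBS liver 2). Serpina3m, a protease inhibitor of the antichymotrypsin group, fell by 1.53 (SE 0.24, adjusted p = 0.0444; 0.0683 and 0.124 omitting PBS liver 1 and 2). By moderated t the falls were led by Cxcl13, Lum, Gstm7 and Rmdn2 (-1.68), and the first 10 also held Hdhd3 (-1.14) and Mmp11, a matrix metalloprotease of stromal cells (-1.25), both with an adjusted p of 0.0135 and past without either PBS liver.

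General macrophage markers rose widely. Of 16 measured, 9 rose (56.2%, against 2.07% of all probe sets tested) and none fell, with a median log2 fold change of 1.73. In 14 of the 16 (87.5%) the treated livers lay above both PBS livers, against 13.1% of all probe sets with 1 symbol. The mean of the list was 9.83 to 9.99 in CSF1-Fc livers and 8.18 to 8.52 in PBS livers. Csf1r, the receptor of the injected factor, read 11.16, 11.12, 11.38 and 11.22 in CSF1-Fc livers and 9.56 and 9.26 in PBS livers (1.82, SE 0.15, adjusted p = 0.0128 from limma). Adgre1, a surface marker of rodent macrophages, read 9.87, 9.49, 9.92 and 10.18 in CSF1-Fc livers and 7.77 and 7.78 in PBS livers (2.09, SE 0.20, adjusted p = 0.0135; 0.0617 omitting PBS liver 2). Cd68, a lysosomal glycoprotein of macrophages, rose by 1.86 (SE 0.18, adjusted p = 0.0135) and Cd53, a leukocyte tetraspanin, by 1.89 (SE 0.18, adjusted p = 0.0135). In whole-liver RNA a change in the number of cells of a type and a change in RNA per cell cannot be told apart.

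Genes typical of Kupffer cells moved in the same direction, with 7 of 13 measured higher (53.8%), none lower and a median of 1.36. Marco, a scavenger receptor, lay between 9.71 and 10.07 in CSF1-Fc livers, against 8.07 and 8.34 in PBS livers (1.68, SE 0.17, adjusted p = 0.0141 from limma). The complement receptor gene Vsig4 (CRIg) read 10.08, 10.12, 10.35 and 10.31 in CSF1-Fc livers and 7.98 and 8.58 in PBS livers (1.94, SE 0.20, adjusted p = 0.0149). Both rose by about the same amount as the general markers. Clec4f, a Kupffer cell lectin in mouse, read 7.79, 8.48, 8.89 and 8.32 in CSF1-Fc livers and 6.71 and 7.30 in PBS livers without overlap, but did not pass (1.36, SE 0.33, adjusted p = 0.133). Of 13 monocyte markers 2 rose, the integrins Itgal and Itga4, of which 1 passed omitting PBS liver 2, and 11 did not pass. The 2 risers were 15.4% of the monocyte list, against 2.07% of all probe sets tested. Its median was 0.58, with 5 members negative and 7 (53.8%) above both PBS livers, against 13.1% of all probe sets with 1 symbol. Plac8 (1.32, adjusted p = 0.233 from limma), Cx3cr1 (0.865, adjusted p = 0.191) and F13a1 (0.845, adjusted p = 0.184) lay above both and did not pass. The monocyte chemokine receptor Ccr2 read 6.26, 7.00, 6.40 and 6.53 in CSF1-Fc livers and 6.94 and 6.28 in PBS livers, and the groups overlapped.

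**Figure D3:**
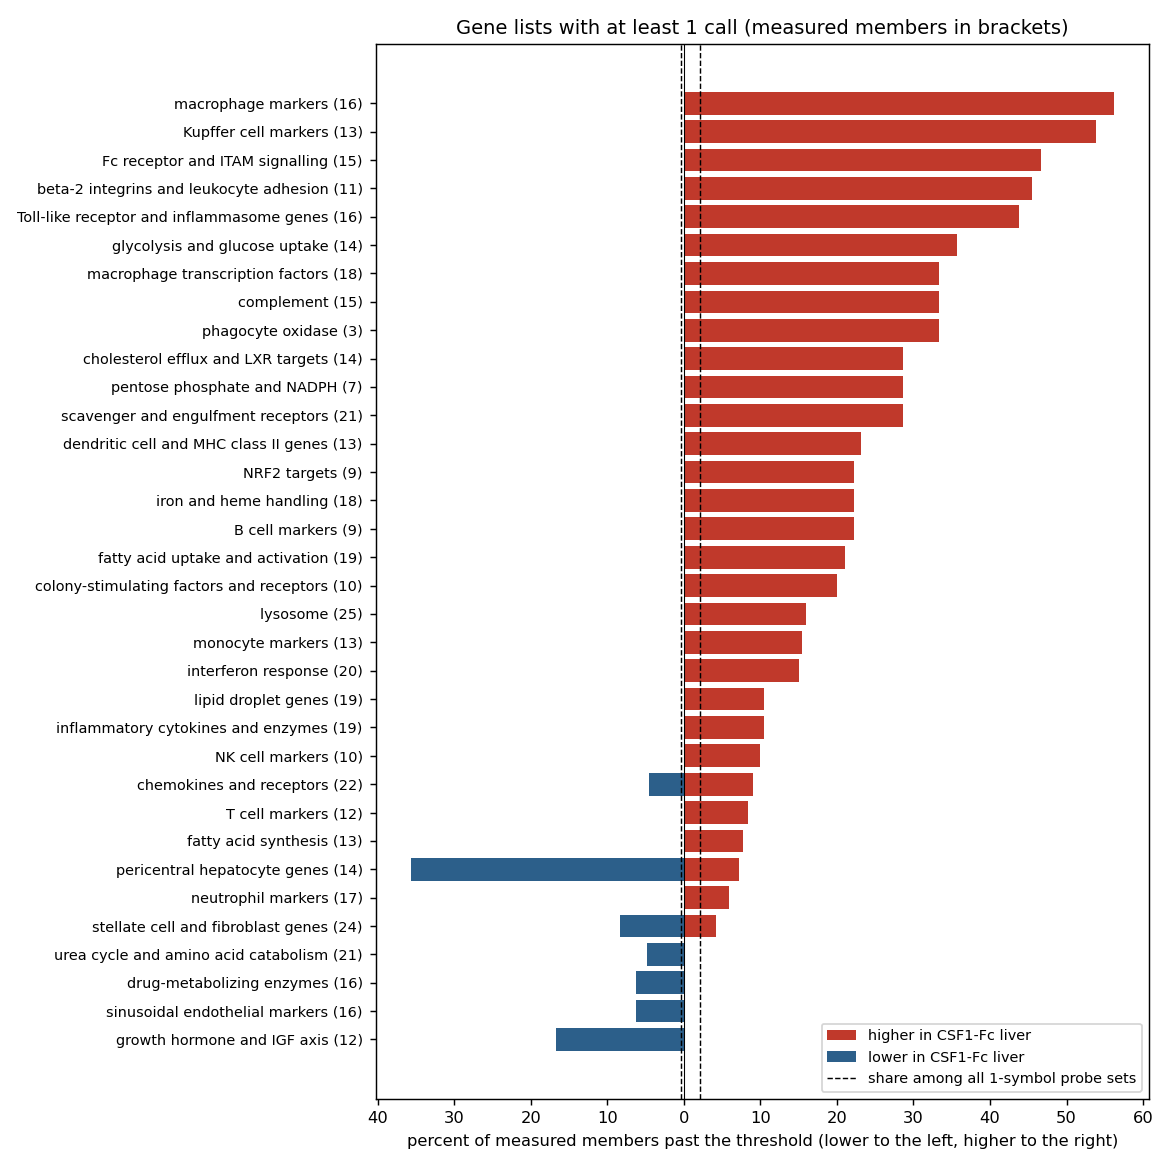
Percent of the measured members of each gene list that passed in limma, higher in CSF1-Fc liver to the right and lower to the left, for the lists with at least 1 call, with dashed lines at 2.07% and 0.317%, the shares among all probe sets with 1 symbol. Macrophage and Kupffer cell markers head the figure at 56.2% and 53.8% higher, and the pericentral hepatocyte list has the longest bar to the left, 35.7%.

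Receptors and kinases that signal through ITAM motifs, the tyrosine motifs behind Fc receptors, were higher by value throughout. In all 15 measured the 4 treated livers lay above both PBS livers, against 13.1% of all probe sets with 1 symbol, and 7 rose past the threshold (46.7%), with a median of 1.36. Vav1, an exchange factor for Rac, read 8.28, 8.35, 8.66 and 8.40 in CSF1-Fc livers and 6.01 and 6.46 in PBS livers (2.19, SE 0.18, adjusted p = 0.0128 from limma). The kinase Syk read 6.86, 6.96, 7.13 and 6.97 in CSF1-Fc livers and 5.76 and 5.75 in PBS livers (1.23, SE 0.13, adjusted p = 0.0149). The inhibitory phosphatases of the pathway rose as well as its activators. Inpp5d, the inositol phosphatase SHIP1, rose by 1.84 (SE 0.17, adjusted p = 0.0135), and Ptpn6, the tyrosine phosphatase SHP-1, by 1.16 (SE 0.12, adjusted p = 0.0165). Fcgr1a, the high-affinity IgG receptor, rose by 2.09 (SE 0.27, adjusted p = 0.0268), while Fcgr2a read 7.97, 8.18, 8.20 and 8.21 in CSF1-Fc livers and 6.46 and 7.73 in PBS livers and did not pass (adjusted p = 0.247). The phagocyte oxidase list had all 3 measured members above both PBS livers, and Ncf1, an oxidase subunit, passed (1.37, SE 0.19, adjusted p = 0.0341).

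Leukocyte adhesion genes had 5 of 11 higher (45.5%) and none lower, and only 2 passed without PBS liver 2. Itgal, the αL chain, read 9.44, 9.33, 9.59 and 9.65 in CSF1-Fc livers and 7.54 and 7.72 in PBS livers (1.87, SE 0.14, adjusted p = 0.0128), and its partner Itgb2, the β2 chain, read 9.02, 8.92, 9.36 and 9.12 in CSF1-Fc livers and 7.50 and 7.11 in PBS livers (1.80, SE 0.18, adjusted p = 0.0145 from limma; 0.0553 omitting PBS liver 2). Both chains of the heterodimer rose by nearly the same amount. Fermt3, the kindlin that activates leukocyte integrins, rose by 1.36 (SE 0.14, adjusted p = 0.0142), and Selplg, the selectin ligand PSGL-1, by 1.27 (SE 0.17, adjusted p = 0.0312; 0.0859 omitting PBS liver 2).

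Sensors of microbial products included 7 risers of 16 measured (43.8%), with a median of 1.60 and none lower. The Toll-like receptors divided by member. Tlr7, a receptor for single-stranded RNA, read 7.23, 7.27, 7.15 and 7.31 in CSF1-Fc livers and 5.12 and 5.58 in PBS livers (1.89, SE 0.16, adjusted p = 0.0128 from limma). Tlr2 (1.76, adjusted p = 0.0145), Tlr4 (1.76, adjusted p = 0.0135) and Tlr6 (1.56, adjusted p = 0.029; 0.0661 omitting PBS liver 2) rose as well. Tlr3, the receptor for double-stranded RNA, read 7.40, 7.44, 7.57 and 7.64 in CSF1-Fc livers and 7.82 and 7.39 in PBS livers, with the groups overlapping, and Tlr5 (0.42, adjusted p = 0.408) and the shared adaptor Myd88 (0.27, adjusted p = 0.475) did not pass. The inflammasome sensors Nlrp3 (2.20, SE 0.26, adjusted p = 0.0225) and Nlrc4 (2.05, SE 0.26, adjusted p = 0.0267; 0.0609 omitting PBS liver 2) rose. Their adaptor Pycard read 5.83, 6.40, 6.19 and 6.41 in CSF1-Fc livers and 4.80 and 5.97 in PBS livers and did not pass (0.82, adjusted p = 0.381).

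A smaller share of the products of such signalling passed. Of 19 inflammatory cytokines and enzymes 2 rose (10.5%, against 2.07% of all probe sets tested) and none fell, with a median of -0.015. In 6 of the 19 (31.6%, against 13.1% of all probe sets with 1 symbol) the treated livers lay above both PBS livers. Of the 19, 8 were dim, at or below the median level of all probe sets, against 0 of the 16 sensors. Il18, a cytokine released through caspase-1, read 8.84, 8.97, 9.10 and 8.79 in CSF1-Fc livers and 7.00 and 6.66 in PBS livers (2.09, SE 0.16, adjusted p = 0.0128 from limma), and Tgfb1 rose by 1.43 (SE 0.20, adjusted p = 0.0358; 0.0576 omitting PBS liver 2). Il1b read 7.04, 7.39, 6.52 and 6.58 in CSF1-Fc livers and 4.83 and 5.85 in PBS livers without overlap and did not pass (1.54, SE 0.37, adjusted p = 0.132). Of 22 chemokines and receptors Ccl6 (1.41, SE 0.13, adjusted p = 0.0135 from limma) and Cxcl16 (1.47, SE 0.23, adjusted p = 0.0425) rose and Cxcl13 fell. These were 9.09% higher and 4.55% lower, against 2.07% and 0.317% of all probe sets tested. Of 20 interferon-response genes the Schlafens Slfn4 and Slfn2 (1.75, SE 0.13, adjusted p = 0.0127) and Oas2 (1.33, SE 0.21, adjusted p = 0.0449; 0.0617 and 0.127 omitting PBS liver 1 and 2) rose. These 3 were 15% of the list, against 2.07% of all probe sets tested. The other 17 missed the threshold, and the median over the list was 0.41. None of 9 genes that respond to interleukin-4 passed, and their median was -0.16.

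Antigen presentation genes of the class II pathway had 3 of 13 higher (23.1%) and none lower. RT1-DMa, a chain of the peptide exchange factor DM, read 10.33, 10.92, 11.001 and 10.93 in CSF1-Fc livers and 8.19 and 9.04 in PBS livers (2.18, SE 0.30, adjusted p = 0.0329 from limma). Its partner RT1-DMb, the neighbouring measured gene, read 10.48, 10.88, 10.87 and 10.87 in CSF1-Fc livers and 8.36 and 9.39 in PBS livers (1.90, SE 0.30, adjusted p = 0.0459). In both the PBS livers differed by about 1 log2 unit and still lay below every treated liver. RT1-Da, a class II chain, rose by 1.85 (SE 0.26, adjusted p = 0.0343; 0.0552 and 0.116 omitting PBS liver 1 and 2), and RT1-Ba (1.52, adjusted p = 0.0728) and RT1-Db1 (0.69, adjusted p = 0.0618) did not pass.

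Uptake of particles and dying cells was represented by 21 measured receptors and bridging molecules, of which 6 rose (28.6%), with a median of 0.98, and 10 passed without PBS liver 1. Axl, named above by its t, read 9.39, 9.55, 9.71 and 9.48 in CSF1-Fc livers and 7.41 and 7.46 in PBS livers. Its relatives did not pass, with Mertk at 8.49, 8.19, 8.75 and 8.54 in CSF1-Fc livers and 7.48 and 7.60 in PBS livers (0.95, adjusted p = 0.0746) and Tyro3 at 0.06 (adjusted p = 0.891). The TAM ligands Gas6 (-0.26, adjusted p = 0.685) and Pros1 (-0.50, adjusted p = 0.494) did not pass either, so of these 5 genes 1 receptor alone did. The 6 risers were Marco, Cd36, Siglec1, Axl, Timd4 and Cd68.

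All 3 measured chains of complement C1q, which tissue macrophages make, rose, and they formed the single run of 3 or more neighbouring measured genes that passed in one direction, on chromosome 5 of GRCr8, among 14412 placed genes. C1qb read 11.22, 11.24, 11.03 and 11.21 in CSF1-Fc livers and 9.56 and 9.86 in PBS livers (1.47, SE 0.14, adjusted p = 0.0135 from limma). C1qa (1.78, SE 0.29, adjusted p = 0.0497) and C1qc (1.99, SE 0.30, adjusted p = 0.0406) had PBS livers about 1 log2 unit apart and passed without either of them. Properdin (Cfp, 1.63, SE 0.15, adjusted p = 0.0134) and the C3a receptor (C3ar1, 1.96, SE 0.29, adjusted p = 0.0409; 0.0677 and 0.124 omitting PBS liver 1 and 2) completed the 5 of 15 complement genes that rose. The plasma components made by hepatocytes did not pass, among them C3 (-0.11, adjusted p = 0.843), C5 (0.09, adjusted p = 0.92) and C9 (0.16, adjusted p = 0.838). A further 18 pairs of neighbouring measured genes passed in the same direction, including Clec4a1 with Clec4a3, P2ry12 with P2ry13 and, among the falls, Dcn with Lum.

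Of 25 lysosomal genes 16 lay above both PBS livers on every treated array, against 13.1% of all probe sets with 1 symbol, and 4 passed as higher (16%, against 2.07%; 8 omitting PBS liver 1), with a median of 0.56. Lgmn, the asparaginyl endopeptidase legumain, read 11.04, 10.83, 11.23 and 10.94 in CSF1-Fc livers and 9.41 and 9.26 in PBS livers (1.68, SE 0.15, adjusted p = 0.0134 from limma). Ctsd, cathepsin D, rose by 1.62 (SE 0.18, adjusted p = 0.0171), Asah1, acid ceramidase, by 1.46 (SE 0.21, adjusted p = 0.0386; 0.0798 omitting PBS liver 2) and Ctsa by 0.91 (SE 0.14, adjusted p = 0.0472; 0.0736 omitting PBS liver 2). Other abundant members did not, among them Ctsl (-0.14, adjusted p = 0.847) and Lamp2 (0.08, adjusted p = 0.826).

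Glucose uptake and glycolysis had 5 risers of 14 measured (35.7%; 3 omitting PBS liver 2). Slc2a1 read 7.93, 8.14, 8.40 and 7.79 in CSF1-Fc livers and 5.50 and 5.95 in PBS livers, whereas Slc2a2, the hepatocyte transporter GLUT2, read 10.24, 9.94, 10.08 and 10.09 in CSF1-Fc livers and 10.60 and 9.63 in PBS livers (-0.03, adjusted p = 0.974 from limma). Pkm, the pyruvate kinase of most tissues other than liver, read 5.02, 5.33, 5.00 and 5.21 in CSF1-Fc livers and 3.28 and 3.36 in PBS livers (1.82, SE 0.14, adjusted p = 0.0128). Pklr, the liver enzyme, read 8.67, 8.77, 8.72 and 8.43 in CSF1-Fc livers and 9.75 and 8.87 in PBS livers (-0.66, adjusted p = 0.334). The difference between the isoforms of a pair was not tested. Hk3, a hexokinase of leukocytes, rose by 1.57 (SE 0.14, adjusted p = 0.0134), Pfkfb3, which makes the activator of phosphofructokinase, by 1.52 (SE 0.20, adjusted p = 0.0307; 0.0975 omitting PBS liver 2) and Pfkl, the liver-type phosphofructokinase, by 1.02 (SE 0.15, adjusted p = 0.0409; 0.0514 omitting PBS liver 2). None of 11 genes of gluconeogenesis and the fasting response passed, and none had groups that did not overlap, with Pck1 at 11.34, 10.83, 10.22 and 11.14 in CSF1-Fc livers and 11.37 and 10.89 in PBS livers.

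Lipid genes moved in both directions. In fatty acid uptake and activation 4 of 19 rose (21.1%), Cd36, Acsbg1, the acetyl-CoA synthetase Acss1 (1.42, SE 0.22, adjusted p = 0.0449 from limma; 0.0588 and 0.133 omitting PBS liver 1 and 2) and Acsf2 (1.24, SE 0.16, adjusted p = 0.0274). Acsbg1 read 7.60, 7.93, 8.25 and 7.91 in CSF1-Fc livers and 5.46 and 5.70 in PBS livers. The main hepatocyte synthetase Acsl1 read 10.44, 10.18, 10.28 and 10.37 in CSF1-Fc livers and 11.17 and 10.18 in PBS livers and did not pass (-0.36, adjusted p = 0.619). Of the 19, 11 had a positive and 8 a negative log2 fold change. Above both PBS livers lay 7 (36.8%) and below both 4 (21.1%), against 13.1% and 11.7% of all probe sets with 1 symbol. The fatty acid genes Slc27a5 (-1.03, adjusted p = 0.207 from limma), Fabp7 (-0.99, adjusted p = 0.172) and Fabp1 (-0.75, adjusted p = 0.324) lay below both PBS livers and did not pass. In cholesterol efflux and LXR targets 4 of 14 rose (28.6%), Pltp, Soat1, which esterifies cholesterol (1.35, SE 0.13, adjusted p = 0.0135), the LDL receptor ligase Mylip (1.20, SE 0.15, adjusted p = 0.024) and the efflux pump Abcg1 (1.17, SE 0.16, adjusted p = 0.0318; 0.0851 omitting PBS liver 2). The list's median was -0.04, with members on both sides of 0. Nr1h3, the LXRα gene, read 10.15, 10.46, 10.36 and 10.58 in CSF1-Fc livers and 8.97 and 9.72 in PBS livers without overlap and did not pass (1.04, SE 0.24, adjusted p = 0.121).

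Cholesterol synthesis genes were lower together without a single call. All 15 measured had a negative log2 fold change, from -1.20 to -0.35 with a median of -0.77, and in 11 of the 15 (73.3%) the treated livers lay below both PBS livers, against 11.7% of all probe sets with 1 symbol. Msmo1, a sterol demethylase, read 8.12, 8.43, 8.09 and 8.94 in CSF1-Fc livers and 9.57 and 9.63 in PBS livers (-1.20, SE 0.26, adjusted p = 0.104 from limma). Sqle, squalene epoxidase, read 6.55, 6.49, 6.63 and 7.41 in CSF1-Fc livers and 8.09 and 7.79 in PBS livers (-1.16, SE 0.29, adjusted p = 0.146). In both genes CSF1-Fc liver 4 was the highest of the treated livers. Bile acid genes also had no call. Their median was -0.41, and 7 of 15 (46.7%) lay below both PBS livers, against 11.7% of all probe sets with 1 symbol. Cyp27a1 read 7.99, 7.80, 7.82 and 8.02 in CSF1-Fc livers and 8.65 and 8.47 in PBS livers (-0.66, adjusted p = 0.0922 from limma). The bile acid list had a median difference of 0.55 between PBS liver 1 and PBS liver 2. Its median fold change was -0.18 without PBS liver 1 and -0.74 without PBS liver 2.

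Falls were counted in several hepatocyte lists, with the highest share in the pericentral one. Of 14 measured pericentral genes 11 (78.6%) lay below both PBS livers on every treated array, against 11.7% of all probe sets with 1 symbol. The median was -0.69. Past the threshold 5 fell (35.7%, against 0.317% of all probe sets tested) and 1 rose. The 5 were Car3, Avpr1a, the Wnt feedback inhibitor Axin2, the ammonium transporter Rhbg and the R-spondin receptor Lgr5, and none of them passed without PBS liver 2. Axin2 read 4.38, 4.73, 4.57 and 4.37 in CSF1-Fc livers and 5.81 and 5.55 in PBS livers (-1.16, SE 0.16, adjusted p = 0.0345 from limma; 0.0662 omitting PBS liver 2). Lgr5 read 3.73, 3.60, 3.75 and 3.81 in CSF1-Fc livers and 4.64 and 4.44 in PBS livers (-0.82, SE 0.13, adjusted p = 0.0473; 0.0624 omitting PBS liver 2). Rhbg read 5.34, 5.58, 5.67 and 5.59 in CSF1-Fc livers and 6.51 and 6.50 in PBS livers (-0.96, SE 0.14, adjusted p = 0.0358; 0.0848 omitting PBS liver 2). In none of the 3 did the PBS livers differ by more than 0.3. The riser was Oat, ornithine aminotransferase (1.04, SE 0.12, adjusted p = 0.0194), which kidney and other tissues also express. The other Wnt-responsive members gave Tbx3 -0.97 (adjusted p = 0.197), Notum -0.73 (adjusted p = 0.0882), Nkd1 -0.20 (adjusted p = 0.567) and Sp5 -0.15 (adjusted p = 0.673). None of 10 periportal genes passed and in none did the groups separate, with a median of -0.13.

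The endothelial ligands of that pathway were among the sinusoidal genes. Rspo3, the R-spondin of the central vein, read 5.46, 5.09, 5.16 and 5.15 in CSF1-Fc livers and 6.88 and 6.18 in PBS livers (-1.32, SE 0.23, adjusted p = 0.0587 from limma; 0.0507 and 0.0454 omitting PBS liver 1 and 2), and Wnt2 (-0.43, adjusted p = 0.263) and Wnt9b (-0.14, adjusted p = 0.784) did not pass. Of 16 sinusoidal markers Ehd3, an endocytic ATPase, was the sole gene to pass with all arrays, with 9.28, 9.20, 9.23 and 9.55 in CSF1-Fc livers and 10.22 and 10.20 in PBS livers (-0.90, SE 0.14, adjusted p = 0.0497; 0.056 and 0.108 omitting PBS liver 1 and 2). Cdh5, the endothelial cadherin, lay the other way, at 9.83, 9.61, 10.21 and 9.81 in CSF1-Fc livers and 9.35 and 8.32 in PBS livers, and did not pass (1.03, SE 0.31, adjusted p = 0.219; 0.0419 and 0.393 omitting PBS liver 1 and 2). The hyaluronan receptor Lyve1 differed by -0.03 (adjusted p = 0.939) and Stab2 by -0.38 (adjusted p = 0.519). The mean of the list was 7.26 to 7.45 in CSF1-Fc livers and 7.53 to 7.88 in PBS livers. Of the 16 members 8 lay below both PBS livers (50%, against 11.7% of all probe sets with 1 symbol).

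Stellate cell and fibroblast genes varied between the PBS livers. Lum and Dcn fell and Lox rose among 24 measured. Dcn, the proteoglycan decorin, read 7.95, 7.42, 7.50 and 7.57 in CSF1-Fc livers and 9.06 and 8.86 in PBS livers (-1.35, SE 0.18, adjusted p = 0.0317 from limma; 0.0513 and 0.0814 omitting PBS liver 1 and 2). Lox, the collagen crosslinking oxidase, read 7.46, 6.93, 7.04 and 6.61 in CSF1-Fc livers and 5.28 and 4.30 in PBS livers (2.22, SE 0.34, adjusted p = 0.0419; 0.108 omitting PBS liver 2). The fibrillar collagens did not pass, with Col1a1 at 6.11, 5.66, 6.22 and 5.87 in CSF1-Fc livers and 7.18 and 5.96 in PBS livers. The median difference of the list between PBS liver 1 and PBS liver 2 was 0.61, larger than its median log2 fold change of -0.48, which was -0.06 without PBS liver 1.

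Other hepatocyte lists had few calls. In the growth hormone and IGF axis 2 of 12 fell (16.7%), Igfals, the acid-labile subunit that carries IGF in plasma, with 5.29, 5.58, 5.22 and 5.27 in CSF1-Fc livers and 6.92 and 6.40 in PBS livers (-1.32, SE 0.19, adjusted p = 0.0375 from limma), and Dlk1, a fetal hepatoblast gene (-1.14, SE 0.18, adjusted p = 0.0433; 0.0591 and 0.114 omitting PBS liver 1 and 2). Kmo, of tryptophan breakdown, fell alone of 21 urea cycle and amino acid genes (-0.83, SE 0.13, adjusted p = 0.0434; 0.0909 omitting PBS liver 2), and 4 of that list passed without PBS liver 1. Fmo1 fell alone of 16 drug-metabolizing enzymes (-1.14, SE 0.18, adjusted p = 0.0463; 0.0501 omitting PBS liver 2). Rises were counted in fatty acid synthesis and in NADPH supply, both through the malic enzyme Me1 (1.90, SE 0.28, adjusted p = 0.0369; 0.064 and 0.113 omitting PBS liver 1 and 2), with Upp1 in the second, and among lipid droplet genes through the lysophospholipid acyltransferases Lpcat2 (1.80, SE 0.21, adjusted p = 0.021; 0.0611 omitting PBS liver 2) and Lpcat1 (1.03, SE 0.15, adjusted p = 0.0381; 0.0636 omitting PBS liver 2). In the fatty acid synthesis list Me1 was the only call of 13 measured (7.69%, against 2.07% of all probe sets tested). Of the 13, 11 had a negative log2 fold change, and the median was -0.23 (0.14 without PBS liver 1). The NADPH list also holds pentose phosphate genes, and Upp1 is a uridine-cleaving enzyme. Lpcat2 and Lpcat1 were 10.5% of 19 lipid droplet genes, against 2.07% of all probe sets tested. The lipid droplet list had a median of 0.02. Of its members 6 lay below both PBS livers (31.6%) and 3 above both (15.8%), against 11.7% and 13.1% of all probe sets with 1 symbol. Secreted hepatocyte proteins had no call and a median of -0.09. Of 13 hepatocyte transcription factors 6 lay below both PBS livers (46.2%, against 11.7% of all probe sets with 1 symbol). All 13 factors had a negative fold change (median -0.54), and none passed. Their median difference between PBS liver 1 and PBS liver 2 was 0.56. Their median fold change was -0.29 without PBS liver 1 and -0.74 without PBS liver 2. Fgf21, a hormone of the fasting liver, read 5.45, 6.90, 6.24 and 5.08 in CSF1-Fc livers and 7.96 and 7.998 in PBS livers without overlap, and did not pass (-2.06, SE 0.50, adjusted p = 0.137).

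**Figure D4:**
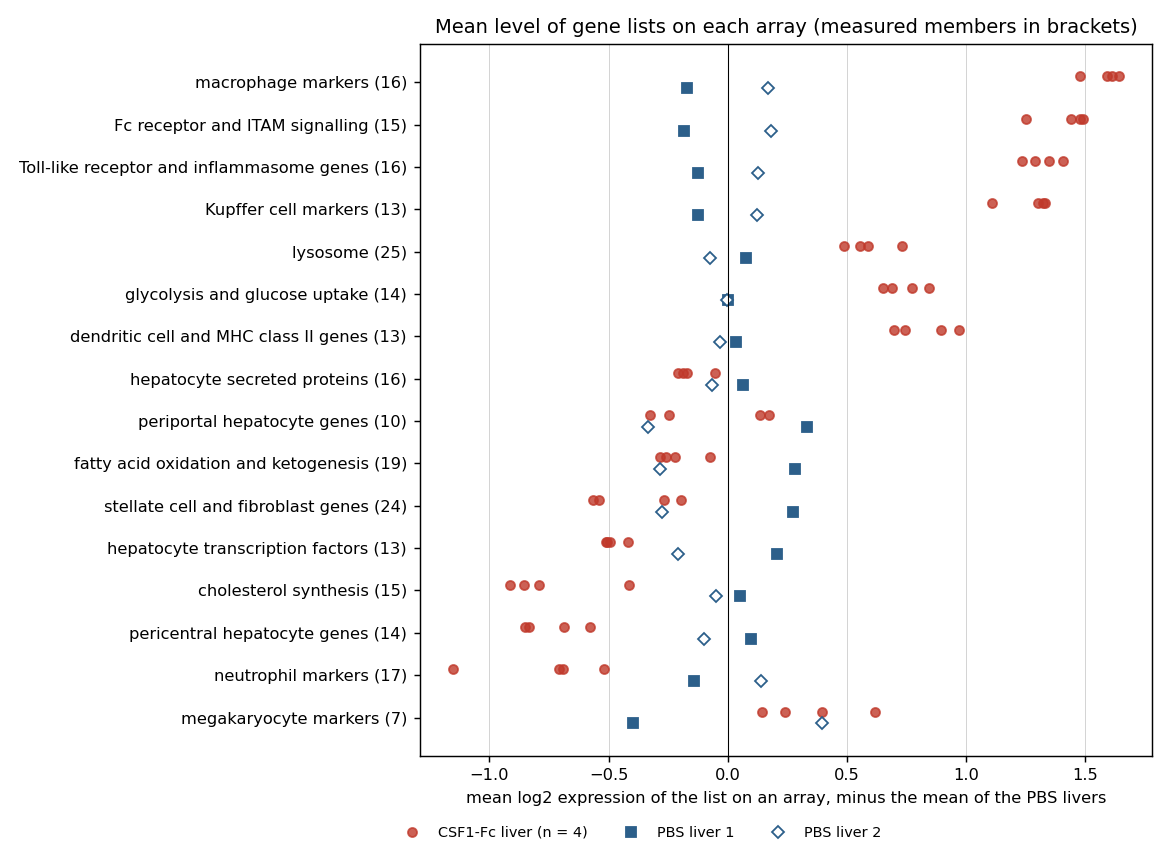
Mean log2 expression of 16 gene lists on each array, minus the mean of the PBS livers (x axis), with 1 red circle per CSF1-Fc liver, a filled blue square for PBS liver 1 and an open blue diamond for PBS liver 2. The macrophage lists lie to the right of both PBS livers on all treated arrays, and in the periportal, stellate and fatty acid oxidation lists the PBS livers lie farther apart than most treated arrays do.

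Iron genes included 4 risers of 18 (22.2%). Slc40a1, the iron exporter ferroportin, read 11.31, 11.40, 11.44 and 11.34 in CSF1-Fc livers and 10.14 and 10.21 in PBS livers (1.20, SE 0.12, adjusted p = 0.0135 from limma). Hmox1, heme oxygenase, read 8.47, 8.59, 8.50 and 8.51 in CSF1-Fc livers and 7.06 and 7.30 in PBS livers (1.33, SE 0.13, adjusted p = 0.0135). Slc11a1, a phagosomal metal transporter, rose by 1.72 (SE 0.24, adjusted p = 0.0343), and Tfrc, the transferrin receptor, by 1.76 (SE 0.24, adjusted p = 0.0317; 0.0954 omitting PBS liver 2). Hamp, which encodes hepcidin, the hormone that takes ferroportin off the cell surface, read 10.63, 11.01, 10.56 and 10.70 in CSF1-Fc livers and 11.61 and 12.02 in PBS livers and did not pass (-1.09, SE 0.19, adjusted p = 0.0595).

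Among the other blood cells, 14 of 17 neutrophil genes had a negative log2 fold change and 3 a positive one. Below both PBS livers lay 47.1% of these genes and above both 11.8%, against 11.7% and 13.1% of all probe sets with 1 symbol. Their list had a mean of 5.38 to 6.01 in CSF1-Fc livers and 6.39 to 6.67 in PBS livers, a median log2 fold change of -0.92 and 8 of 17 members below both PBS livers and 2 above both (Mmp9 and the receptor gene Csf3r, 1.18), and the call was the rise of Mmp9, which macrophages also make (0.0623 and 0.144 without PBS liver 1 and 2). Retnlg, a neutrophil resistin-like protein, read 3.34, 3.50, 1.90 and 3.40 in CSF1-Fc livers and 5.62 and 6.69 in PBS livers (-3.12, SE 0.54, adjusted p = 0.0588 from limma). Ngp, a granule protein, read 9.43, 9.52, 8.33 and 9.37 in CSF1-Fc livers and 11.02 and 10.93 in PBS livers (-1.82, SE 0.35, adjusted p = 0.08). CSF1-Fc liver 3 was the lowest in both. Of 12 T cell markers Cd4 alone rose, with 11.01, 10.83, 11.24 and 10.81 in CSF1-Fc livers and 8.95 and 8.52 in PBS livers (2.24, SE 0.19, adjusted p = 0.0128), a gene that rat macrophages also express, whereas Cd3e read 3.45, 3.41, 3.10 and 3.29 in CSF1-Fc livers and 2.67 and 2.83 in PBS livers (0.57, adjusted p = 0.162). Of 9 B cell markers Cd22 (2.16, SE 0.16, adjusted p = 0.0127) and Blnk (1.10, SE 0.11, adjusted p = 0.0145) rose, and of 10 NK markers Klrk1 (1.86, SE 0.20, adjusted p = 0.0174; 0.0723 omitting PBS liver 2). The 2 B cell risers were 22.2% of their list, against 2.07% of all probe sets tested. Of the 9 B cell markers 6 had a negative log2 fold change, and the median was -0.27. The medians of the T cell and NK lists were 0.11 and 0.01. Erythroid, megakaryocyte and mast cell lists had no call.

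Cell division genes did not pass. Of 17 M phase genes and 20 DNA replication genes none was called, with medians of 0.21 and 0.13. Ccna2, cyclin A, read 6.64, 7.10, 7.17 and 7.17 in CSF1-Fc livers and 6.85 and 6.90 in PBS livers, and Pcna, the replication clamp, read 7.73, 8.24, 8.04 and 8.24 in CSF1-Fc livers and 7.75 and 8.24 in PBS livers. The groups overlapped in both, and with a median SE of 0.18 over genes a change of this size could not be detected here.

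Transcription factors of the macrophage lineage had 6 of 18 higher (33.3%), with a median of 1.09. Of the 18, 12 (66.7%) lay above both PBS livers, against 13.1% of all probe sets with 1 symbol. Tfec, of the MITF and TFE family, read 9.36, 9.34, 9.23 and 9.32 in CSF1-Fc livers and 7.63 and 7.95 in PBS livers (1.52, SE 0.14, adjusted p = 0.0134 from limma). Spi1, which encodes PU.1, read 8.94, 9.10, 9.21 and 9.10 in CSF1-Fc livers and 7.05 and 7.95 in PBS livers (1.58, SE 0.26, adjusted p = 0.0487). Etv5 (1.93, SE 0.16, adjusted p = 0.0128), Irf5 (1.76, SE 0.26, adjusted p = 0.0397; 0.0545 and 0.0611 omitting PBS liver 1 and 2), Irf8 (1.12, SE 0.16, adjusted p = 0.0351) and Fli1 (1.06, SE 0.15, adjusted p = 0.0369; 0.0948 omitting PBS liver 2) made up the rest. Csf1, the gene of the endogenous factor, read 6.08, 5.94, 6.02 and 5.99 in CSF1-Fc livers and 6.90 and 6.55 in PBS livers, without overlap, and did not pass (-0.72, SE 0.14, adjusted p = 0.0834). The arrays measure rat transcripts, so the injected porcine protein does not enter this value. Of 10 colony-stimulating factor genes Csf1r and Csf2rb, the shared β chain of the GM-CSF, interleukin-3 and interleukin-5 receptors, rose, the second with 9.32, 9.39, 9.26 and 8.99 in CSF1-Fc livers and 7.26 and 6.85 in PBS livers (2.19, SE 0.18, adjusted p = 0.0128).

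The olfactory, vomeronasal, taste and trace amine receptors, which liver is not known to use, served as a measure of calls among dim probe sets: of 1297 genes 3 rose (0.231%) and 1 fell (0.0771%), and 1258 lay at or below the median level of all probe sets. Their 4 calls, named after their values were seen, were Olr1585 (1.90), Or6n2 (1.48), Or51b6b (0.89) and Tas2r13 (-1.005), none of which passed without PBS liver 2 (0.0938, 0.129, 0.11 and 0.0599).

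Some genes varied widely within a group. Ly6al, a gene of the Ly6 family, read 2.77, 10.49, 3.27 and 10.20 in CSF1-Fc livers and 5.34 and 3.49 in PBS livers, so 2 treated livers stood about 7 log2 units above the other 2. Spink1, a secreted trypsin inhibitor, read 7.70, 7.23, 3.39 and 3.77 in CSF1-Fc livers and 4.71 and 9.30 in PBS livers. Fam111a read 5.26, 8.41, 8.49 and 5.96 in CSF1-Fc livers and 7.98 and 7.43 in PBS livers. These 3 genes divided the treated livers in 3 different ways. Rgs1, a regulator of G protein signalling in leukocytes, read 6.75, 4.72, 3.83 and 7.18 in CSF1-Fc livers and 4.61 and 5.64 in PBS livers, the histone gene H3c1 3.40, 3.42, 5.71 and 6.63 in CSF1-Fc livers and 6.11 and 7.40 in PBS livers, and the carboxylesterase Ces2e 5.75, 6.50, 3.31 and 6.79 in CSF1-Fc livers and 8.05 and 6.66 in PBS livers. Between the PBS livers the widest gap after Spink1 was in Prg4, the lubricin gene, with 8.85 and 6.00, and Rpl30, a ribosomal protein gene, with 8.02 and 10.47, was also among the 8 widest. None of these genes passed.

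**Figure D5:**
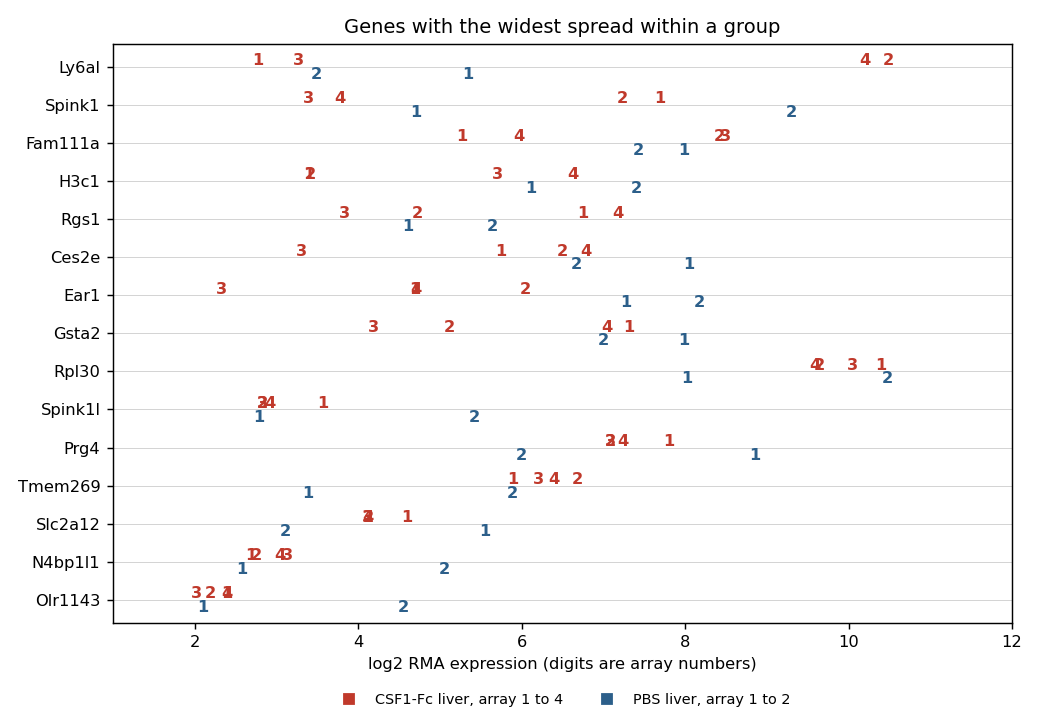
Log2 RMA expression (x axis) of the 15 genes with the widest spread within a group, each digit marking 1 array by its number, red for CSF1-Fc livers and blue for PBS livers. Ly6al splits the treated livers 2 and 2, near 3 and above 10, and Spink1 splits both groups.

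Identical values on different arrays were common in these data and bear on the error of single genes. In 24.4% of the genes at least 2 of the 4 CSF1-Fc arrays held the same deposited value, and this was so in 34 of the 306 that rose (11.1%) and 13 of the 47 that fell (27.7%). P2ry10b, a purinergic receptor-like gene, held 1 value, 5.86, on all 4 treated arrays against 3.77 and 4.24 in PBS livers (1.86, adjusted p = 0.0128 from limma), and Neurl1b held 3.65 on all 4 against 4.34 and 4.47 in PBS livers (-0.75, adjusted p = 0.0403; 0.0623 omitting PBS liver 2). S1pr3, a sphingosine phosphate receptor, read 5.97, 5.97, 6.04 and 5.97 in CSF1-Fc livers and 7.34 and 7.04 in PBS livers. Left out of the calls, the probe sets with repeated values took the counts to 273 higher and 34 lower, an alternative chosen after these values were seen. Whether the calls within them rest on the repeated values was not tested.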

How the data were processed

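RNA of 6 neonatal rat livers, extracted with TRIzol and column-purified, was hybridised by the authors to Affymetrix Rat Gene 2.1 ST arrays, checked in Expression Console and summarised by RMA. The deposited values are on the log2 scale. The sources used here do not state whether the livers and the 3 BMDM arrays were normalised together. No scanner files were used, and sequencing depth does not apply.

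The 4 CSF1-Fc and 2 PBS livers were compared in limma 3.58.1 (R 4.3.3) with lmFit and eBayes, two-sided, on all 36685 probe sets, with Benjamini-Hochberg adjustment over all of them and a threshold of 0.05. Single-symbol probe sets (14824) are reported, and 829 had several symbols and 21032 none in the platform annotation. A gene is represented by its probe set with the highest mean over the 6 livers. The script was tested on simulated data.

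The members, the 50 gene lists and the tests were chosen with earlier results of these data known. Of 886 listed genes 652 were measured under 1 symbol. Selected by rule were the 15 largest changes and the 10 largest moderated t in each direction, both among calls whose groups did not overlap. Up to 5 members per list with the smallest adjusted p were also selected. So were the genes with the widest spread within a group, the genes the study names, and genes in runs of 3 or more neighbouring calls. Not every selected gene is named in the text. Other genes were named for their role or after their values were seen. Lists are described by counts and medians, with no set test. Gene order and promoters came from RefSeq (GRCr8). Alternatives were the BMDM arrays in the fit, a filter on dim probe sets, other sets of probe sets, priors, normalisations and centrings, the replicate number as a block, each array left out, and repeated values left out, the last chosen after seeing the data. Tables were handled in Python 3.11.15 with pandas 2.3.3.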

Additional observations from a re-analysis of the deposited data

Results flagged for a closer look

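In 17 of the 186 genes named here (9.14%), 1 of the 4 CSF1-Fc livers lay far from the others, so that its gap to the nearest exceeded the critical value of Dixon's test as a share of the group's range. Chance alone gives this in about 1 of 20 groups, and no explanation was tested. CSF1-Fc liver 1 was the low one in RT1-DMa (0.881), RT1-DMb (0.968), Fcgr2a (0.869), Selplg (0.847) and Ccna2 (0.861), and the high one in Alb (0.881) and Cxcl13 (0.986). CSF1-Fc liver 3 was low in C1qb (0.878) and the neutrophil genes Ngp (0.871) and Retnlg (0.901), and high in Nlrp3 (0.88) and Lpcat1 (0.844). CSF1-Fc liver 2 was low in Pfkl (0.841) and Siglec1 (0.874), and CSF1-Fc liver 4 was high in Sqle (0.846). In S1pr3 and Sp5 the value was 1, since the other 3 arrays held the same deposited value.

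Probe sets without exactly 1 symbol were left out of the comparison, and with CSF1-Fc 142 of them were higher and 46 lower at the same threshold in limma.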

How the results depend on the processing

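Over probe sets with 1 symbol, the count of 307 higher and 47 lower was 558 and 217 when only those probe sets were fitted, where fewer are adjusted over. Among the lower calls it was 28 with the BMDM arrays in the fit, 104 without dim probe sets and 25 with arrays centred on hepatocyte secreted proteins, which moved the median log2 fold change of all probe sets by 0.126. The cause of these shifts was not tested. Over the arrays left out in turn, the higher calls ranged from 0 to 635 and the lower from 0 to 523. With a PBS liver left out, the lone PBS array is assumed to vary like the CSF1-Fc livers. Without PBS liver 1 that lone array is PBS liver 2, which stood apart from the other livers. The highest counts, 635 and 523, were without PBS liver 1, and 212 and 49 were counted without PBS liver 2. With the replicate number as a block, 0 were higher and 0 lower, with 1124 at an unadjusted p under 0.05 in limma. The labels give a number and do not state whether it marks a litter or a batch. Deviations of same-numbered livers correlated at 0.0213 and 0.181, over the 2 numbers the groups share.

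Of the 130 genes named here that passed, 14 did not pass without PBS liver 1 and 53 without PBS liver 2, and none of the called genes changed direction under any alternative run. Of the medians of the 50 lists, 19 moved by more than their spread with centring on hepatocyte proteins and 25 and 22 without PBS liver 1 and 2. A median near 0, such as that of the periportal or LXR list, therefore has no settled sign. The PBS mean rests on 2 livers, and signal over background could not be set from the summarised values.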

Other observations

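Enzymes and receptors of the eicosanoid and platelet-activating factor pathways formed a list chosen after its values were seen. Of 14 measured genes 7 were higher in CSF1-Fc liver and none lower, against 2.07% and 0.317% of all probe sets tested. The median log2 fold change was 1.19. Above both PBS livers lay 9 and below both 1, against 13.1% and 11.7% of all probe sets with 1 symbol. Because of how the list was chosen, these counts describe its members and not the pathways as a whole. Ptgs1, cyclooxygenase 1, read 10.36, 10.51, 10.80 and 10.64 in CSF1-Fc livers and 8.64 and 8.89 in PBS livers (1.81, SE 0.17, adjusted p = 0.0135 from limma). Hpgds, which makes prostaglandin D in macrophages and mast cells, read 9.23, 9.46, 9.82 and 9.45 in CSF1-Fc livers and 7.33 and 7.36 in PBS livers (2.15, SE 0.18, adjusted p = 0.0128 from limma). Both lay well apart from the PBS livers. Tbxas1, thromboxane synthase (1.76, SE 0.28, adjusted p = 0.0494 from limma), Lta4h, which makes leukotriene B (1.41, SE 0.17, adjusted p = 0.021 from limma), Pla2g4a, which releases arachidonic acid (1.59, SE 0.18, adjusted p = 0.0191 from limma; 0.0672 omitting PBS liver 2), Pla2g7 (2.41, SE 0.25, adjusted p = 0.0149 from limma; 0.0623 omitting PBS liver 2) and Ptafr, the receptor for platelet-activating factor (1.59, SE 0.19, adjusted p = 0.0228 from limma; 0.0672 omitting PBS liver 2), were the other risers.

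Of 11 measured genes that carry P2Y and P2X receptor names, 3 rose, against 2.07% of all probe sets tested, with a median over the list of 0.41. These genes were also listed after their values were seen, so the count describes the list only. P2ry12 read 7.06, 7.12, 7.36 and 7.42 in CSF1-Fc livers and 5.48 and 5.68 in PBS livers (1.66, SE 0.16, adjusted p = 0.0135 from limma), and P2ry13, its neighbour among measured genes, read 9.85, 9.69, 9.80 and 10.28 in CSF1-Fc livers and 7.73 and 8.37 in PBS livers (1.86, SE 0.25, adjusted p = 0.0298 from limma; 0.0514 omitting PBS liver 2). The third was P2ry10b, whose treated arrays hold 1 value.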
